A study of Mus musculus with 17 samples.

Results

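Apaf1, Cycs, Casp9, Casp2, Casp6, Diablo and Aifm1 encode the scaffold of the apoptosome, its mitochondrial trigger, initiator and executioner caspases, and further proteins that mitochondria release when cells die. These 7 genes were chosen by name for their roles, with no threshold on measured values but with earlier results of these data known, from the 23361 genes in the expression tables of mouse primordial germ cells, from which oocytes and spermatozoa later arise. All 7 passed the filter on low values at both embryonic days. RNA sequencing was done on 17 libraries of germ cells that were exposed to ionizing radiation (IR) or left untreated, with 5 libraries at the embryonic stage E11.5 and 12 at E13.5. At E11.5, with no sex given, there were 2 irradiated and 3 untreated libraries. At E13.5 there were 3 libraries each of female irradiated cells (FIR), female untreated cells (FC) and of male cells under the codes MIR and MC. For the males, the titles and conditions name MIR as untreated and MC as irradiated, which is the reverse of how the codes FIR and FC are used. Male differences are therefore given as MIR minus MC, and by the titles each would run from irradiated to untreated. The cell type entry of FIR replicate 1 names E11.5, although its title and source name E13.5. The labels give no radiation dose, time or strain. They also do not say that replicates are independent animals, so each p-value reflects how far these libraries vary, which may be technical.

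In the mitochondrial route to apoptosis, pores formed by Bax and Bak let cytochrome c leave the space between the mitochondrial membranes. Cytochrome c and dATP drive Apaf1 to assemble into the wheel-shaped apoptosome, which recruits and activates caspase-9, and caspase-9 starts the cleavage of executioner caspases, among them caspase-6. Released Diablo (also called Smac) binds inhibitor of apoptosis proteins such as Xiap and frees the caspases from them, and released Aifm1 can move to the nucleus and promote DNA fragmentation without caspases. Caspase-2 is activated on a separate platform made of Pidd1 and Cradd, and mice without Casp2 are known to have an excess of female germ cells. Cytochrome c and Aifm1 also serve respiration in living cells, cytochrome c as an electron carrier and Aifm1 in the import and assembly of respiratory chain subunits.

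Levels are in FPKM, fragment numbers scaled to transcript length and library size, which can be set side by side between genes. By the reference annotation (GRCm38, GENCODE M21), Apaf1 (ENSMUSG00000019979.12) lies at chr10:90989311-91082770 on the minus strand, Cycs (ENSMUSG00000063694.5) at chr6:50562563-50566538 on the minus strand, Casp9 (ENSMUSG00000028914.13) at chr4:141793612-141815976 on the plus strand and Casp2 (ENSMUSG00000029863.13) at chr6:42264985-42282508 on the plus strand. Casp6 (ENSMUSG00000027997.9) lies at chr3:129901425-129914103 on the plus strand, Diablo (ENSMUSG00000029433.16) at chr5:123509765-123524176 on the minus strand, and Aifm1 (ENSMUSG00000036932.14), the X-linked member, at chrX:48474944-48513563 on the minus strand. All 7 are annotated as protein-coding. How fragments were assigned to genes, and whether strand was used, was not given in the sources used here. Levels of Cycs, which has processed pseudogenes, of Diablo, which shares 12095 bases with Gm49027, a second protein-coding gene on its strand, and of Casp9, whose span overlaps Ctrc and Cela2a on the other strand by 1015 bases, are uncertain to that extent.

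Promoter sequences of all 7 genes were found in a RefSeq table (GRCm38.p6), each reaching from 250 bases before the annotated start to 50 bases after it. They are shown for Apaf1 and Casp6, the members that differed most in both E13.5 radiation comparisons, and for Cycs and Aifm1, which with Apaf1 held the core letters of the site for NRF1, a transcription factor known for driving cytochrome c and other respiratory genes. Each is written 5′ to 3′ on the strand of the gene, with capitals marking every match, on either strand, to the NRF1 core GCATGCGC, the SP1 box GGGCGG or the CCAAT box CCAAT. The coordinates are chr10:91082694-91082993 (minus strand) for Apaf1, chr6:50566520-50566819 (minus) for Cycs, chrX:48513514-48513813 (minus) for Aifm1 and chr3:129901165-129901464 (plus) for Casp6.
Apaf1: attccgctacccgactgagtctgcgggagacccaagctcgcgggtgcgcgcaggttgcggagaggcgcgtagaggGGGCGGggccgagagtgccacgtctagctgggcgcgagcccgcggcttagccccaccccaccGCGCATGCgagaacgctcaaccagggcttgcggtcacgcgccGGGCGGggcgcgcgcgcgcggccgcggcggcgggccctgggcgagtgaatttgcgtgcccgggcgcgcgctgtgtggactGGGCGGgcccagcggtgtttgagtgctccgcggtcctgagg
Cycs: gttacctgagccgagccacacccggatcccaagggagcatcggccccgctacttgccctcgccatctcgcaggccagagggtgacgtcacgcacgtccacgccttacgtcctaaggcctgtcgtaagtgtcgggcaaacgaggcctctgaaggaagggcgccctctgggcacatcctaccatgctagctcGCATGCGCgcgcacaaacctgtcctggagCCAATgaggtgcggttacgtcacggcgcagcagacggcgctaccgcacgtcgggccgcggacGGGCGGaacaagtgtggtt
Aifm1: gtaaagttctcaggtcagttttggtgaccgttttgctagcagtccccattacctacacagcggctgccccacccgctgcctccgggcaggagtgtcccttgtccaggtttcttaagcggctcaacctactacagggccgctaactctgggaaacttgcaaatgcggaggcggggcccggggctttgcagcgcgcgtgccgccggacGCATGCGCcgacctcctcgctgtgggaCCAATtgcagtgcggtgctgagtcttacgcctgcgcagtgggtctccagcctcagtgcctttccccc
Casp6: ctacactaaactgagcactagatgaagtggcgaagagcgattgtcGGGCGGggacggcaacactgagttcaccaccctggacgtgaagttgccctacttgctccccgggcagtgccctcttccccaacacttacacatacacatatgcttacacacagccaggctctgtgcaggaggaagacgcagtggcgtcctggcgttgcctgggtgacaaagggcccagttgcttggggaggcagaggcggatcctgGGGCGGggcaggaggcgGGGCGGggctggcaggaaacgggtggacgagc

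The NRF1 core began 113 bases before the start in Apaf1, 60 in Cycs and 44 in Aifm1. It occurred in 3 of the 7 members and in 2.71% of all 32851 promoter windows. The SP1 box was found in 6 of 7 members, all but Aifm1, and in 35.7% of windows, and the CCAAT box in 4 of 7, namely Cycs, Casp2, Diablo and Aifm1, and in 37.4%. One of the E2F words TTTCGCGC, TTTGGCGC, TTTCCCGC and TTTGCCGC was found in Casp2 alone among the members, 97 bases before its start and overlapping an SP1 box, against 2.26% of windows. The TATA box TATAAA was in none of the 7 windows and in 13.6% of all windows. The decamer of the p53 response element was in none of the 7 windows and in 8.36% of all windows, and the paired decamers were in none and in 0.0731%. GC content ranged from 62.0% in Casp6 to 74.7% in Apaf1, against a median of 52.67% over all windows.

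The libraries differed in depth and in the RNA of other cells. Estimated from the spacing of low FPKM values, since totals were not given, depth was about 11170000 to 19020000 fragments at E11.5 and 13240000 to 25950000 at E13.5, and Casp9, the member with the fewest fragments, rested on roughly 182 to 555 per library. The 12 germ cell markers, Ddx4, Dazl and Dppa3 among them, were all found. Their summed level was 3120 to 3823 FPKM at E11.5, 3310 to 3442 in FC, 1635 to 2477 in FIR, 4072 to 4412 in MC and 1403 to 2648 in MIR. Markers of supporting cells, the somatic cells that surround germ cells in the gonad (5 of 5 found), summed to 4.17 to 4.31 FPKM in FC, 77.7 to 179.7 in FIR, 5.11 to 9.13 in MC and 82.4 to 245.2 in MIR. The 8 pregranulosa markers summed to 7.44 to 8.43 in FC, 130.3 to 344.3 in FIR, 4.38 to 6.29 in MC and 29.6 to 84.4 in MIR, and the 7 Sertoli markers to 25.9 to 27.3, 28.4 to 29.9, 74.5 to 125.5 and 1228 to 4181. The 9 macrophage markers summed to 10.4 to 14.9 in FC, 42.4 to 73.7 in FIR, 4.71 to 5.93 in MC and 11.7 to 28.5 in MIR. Of these lists, 5 of 5 supporting cell, 8 of 8 pregranulosa and 8 of 8 tested macrophage markers were called higher in FIR, and 4 of 5 supporting cell, 7 of 7 Sertoli and 7 of 8 tested macrophage markers in MIR, while 8 and 11 of the 12 germ cell markers were called lower. The Sertoli marker Hsd17b3 was listed at 0 in every female library and the pregranulosa marker Foxl2 in MC replicate 3 and all 5 E11.5 libraries. In bulk samples, fewer cells of a type and less RNA per cell cannot be told apart.

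The 7 genes spanned a wide range of levels (the plot of FPKM by library). Among 12149 genes with a mean of at least 1 FPKM at E13.5, Aifm1 stood above 92.4% and Cycs above 90.6%, whereas Casp9 stood above 27.3%. Diablo stood above 85.6%, Casp6 above 75.4%, Casp2 above 66.1% and Apaf1 above 59.4%. In the E11.5 table, with 11098 such genes, Cycs stood above 92.3%, Aifm1 above 86.8% and Apaf1 above 30.0%. The tables of the 2 embryonic days were deposited separately and were not tested against each other.

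**Figure D1:**
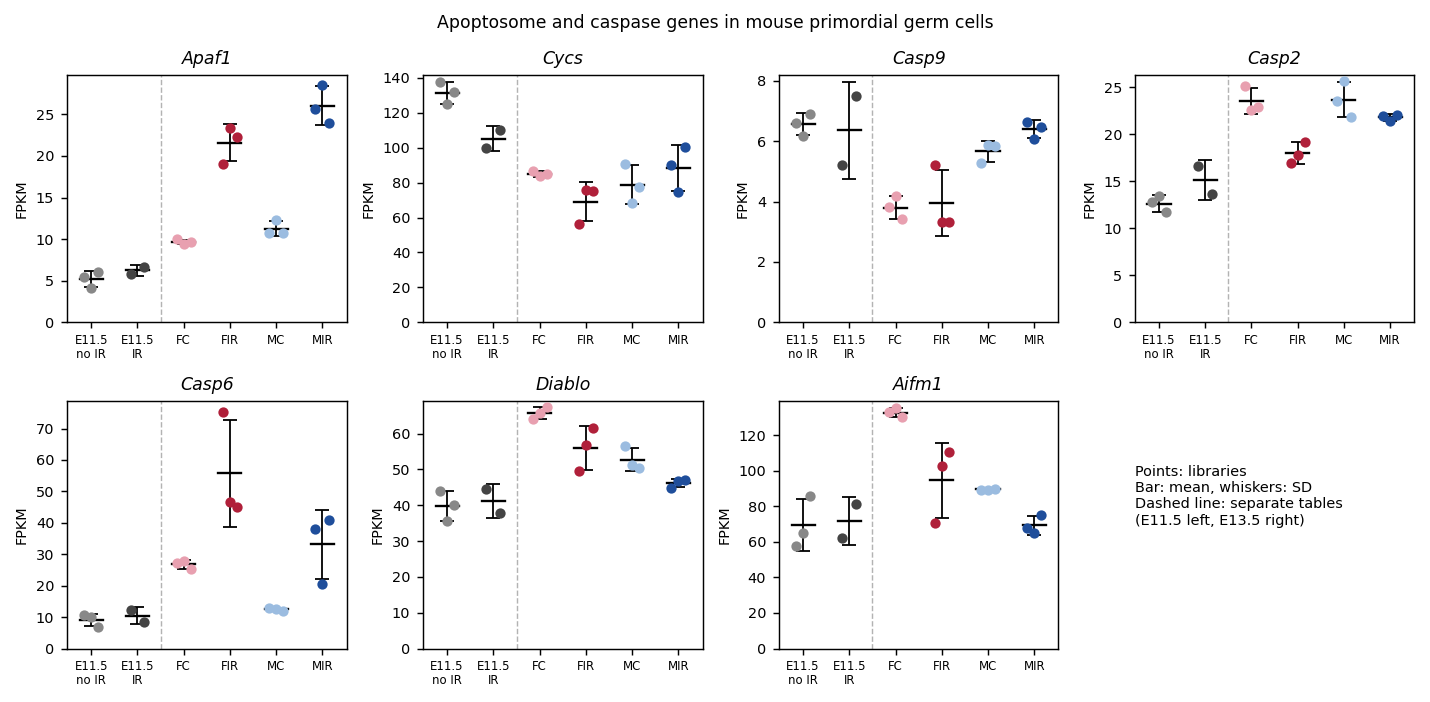
FPKM of each of the 7 genes in every library (points), with the group mean (bar) and SD (whiskers), for E11.5 without and with IR and for the E13.5 groups FC, FIR, MC and MIR, whose table is separate (dashed line). Apaf1 lay between 19.1 and 28.6 FPKM in FIR and MIR and between 9.47 and 12.3 FPKM in FC and MC, while Casp9 stayed between 3.32 and 6.65 FPKM at E13.5.

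The comparison at E11.5 addressed the response to radiation at the earlier stage, with no sex given. Its libraries differed in cell markers. The 7 Sertoli markers averaged 2.22 on the log2(FPKM + 1) scale in IR replicate 1 and 0.76 to 0.90 in the other libraries. Their sums lay between 30.4 and 40.8 FPKM. Dazl ran from 12.4 to 411.8 FPKM and the sum of red blood cell markers from 0.963 to 548.8 FPKM. The part of these differences in the results was not tested. None of the 7 genes passed the test, which was limma on log2(FPKM + 1) with Benjamini-Hochberg adjustment over all 11315 genes tested and a threshold of 0.05. At an unadjusted p under 0.05 there were also 0 members. Over all genes, 0.00884% were called higher and 0.00884% lower, 1 gene each, and 358 had an unadjusted p under 0.05. With IR, Apaf1 stood at 5.76 and 6.70 FPKM, and without at 5.39, 4.17 and 6.10 FPKM, which overlap, with a log2 difference of 0.23 (95% confidence interval -0.28 to 0.73).

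Cycs, the trigger, was the member nearest to the threshold at E11.5. It was at 100.04 and 110.4 FPKM in the irradiated libraries and at 137.6, 124.8 and 131.9 FPKM in the untreated ones. Both irradiated libraries lay below all 3 untreated ones, with a log2 difference of -0.32 (SE 0.140, unadjusted p = 0.0522, adjusted p = 0.974 by limma). Irradiated libraries held 16.6 and 13.6 FPKM of Casp2 and untreated ones 12.7, 13.4 and 11.7, again with no overlap and with a log2 difference of 0.24 (SE 0.177, adjusted p = 0.974 by limma). For the remaining members the groups overlapped. Casp9 measured 5.23 and 7.49 FPKM with IR, against 6.60, 6.19 and 6.91 without, and Casp6 measured 12.3 and 8.50 FPKM, against 10.5, 9.88 and 6.997. Diablo measured 44.5 and 37.8 FPKM with IR, against 44.0, 35.6 and 40.0 without, and Aifm1 measured 62.2 and 81.2 FPKM, against 57.9, 65.0 and 85.9. Their log2 differences lay between -0.06 (Casp9) and 0.17 (Casp6), and all 4 changed sign when 1 or another library was left out. The median log2 difference of the 7 members was 0.05, against -0.02 over all genes tested.

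At E13.5 the scaffold gene Apaf1 was higher in both radiation comparisons. In FIR it was at 19.1, 23.4 and 22.3 FPKM, and in FC at 9.97, 9.47 and 9.61 FPKM. The groups were far from overlapping, and the mean of 21.6 ± 2.24 FPKM (SD, n = 3) in FIR was 2.23 times the 9.68 ± 0.259 FPKM (SD, n = 3) in FC. The rise was 1.08 on the log2 scale (SE 0.108, adjusted p = 2.70e-05 by limma), and 90.6% of the genes tested had a lower value. In MIR, Apaf1 was at 25.6, 28.6 and 23.9 FPKM, and in MC at 10.8, 12.3 and 10.8 FPKM. Every MIR library lay above every MC library, with a log2 difference of 1.14 (SE 0.108, adjusted p = 9.35e-06 by limma). The female and male differences of Apaf1 differed by -0.06 (95% confidence interval -0.39 to 0.27). The order of the group means was MIR, FIR, MC and FC, with no overlap between neighbours. Apaf1 was lowest of the FIR libraries in replicate 1 and highest of the MIR libraries in replicate 2, and supporting cell markers were highest in the former (179.7 FPKM) and lowest in the latter (82.4 FPKM) of their groups. The part of supporting cell RNA in the Apaf1 differences was not tested. Without FIR replicate 1 and MIR replicates 1 and 3, the libraries with the most supporting cell RNA, a set chosen after seeing the data, the female difference was 1.16 (n = 2 in FIR). That set leaves replicate 2, the highest in Apaf1, as the 1 MIR library, so its male values say nothing about stability. FIR replicates 2 and 3, which were kept, held 77.7 and 83.5 FPKM of supporting cell markers, against 4.17 to 4.31 in FC. The 7 mesenchyme markers were highest in libraries that were kept. They summed to 22.3, 41.9 and 30.0 FPKM in FIR replicates 1, 2 and 3, and to 10.6, 50.7 and 26.4 FPKM in those of MIR.

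Cycs did not pass the test in either sex at E13.5. It was at 56.1, 76.0 and 75.2 FPKM in FIR and at 86.6, 83.5 and 85.0 FPKM in FC. All FIR libraries lay below all FC libraries, with a log2 difference of -0.31 (SE 0.142, adjusted p = 0.0942 by limma), which passed only with library weights (-0.17, adjusted p = 0.0269 by limma). In males Cycs was at 90.2, 74.4 and 100.3 FPKM in MIR and at 90.5, 68.2 and 77.5 FPKM in MC. These overlapped, and the log2 difference of 0.16 (adjusted p = 0.341 by limma) became 0.41 with quantile normalization (adjusted p = 0.0164 by limma) and -0.07 with MIR replicate 2 as the 1 MIR library left. The female and male differences were -0.47 apart (SE 0.201, adjusted p = 0.179 by limma), a gap that passed only without MIR replicate 2 (-0.59, adjusted p = 0.0475 by limma). All neighbours in the order of the 4 group means, MIR, FC, MC and FIR, overlapped. Cycs was lowest of the FIR libraries in replicate 1 and lowest of the MIR libraries in replicate 2. Supporting cell markers were highest in the former and lowest in the latter of their groups. Without FIR replicate 1 and MIR replicates 1 and 3 the female Cycs difference was -0.17 (n = 2 in FIR). The part of supporting cell RNA in the Cycs differences was not tested.

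The ratio of 2 genes within a library does not depend on how that library was scaled. For 1 FPKM of Apaf1 the FC libraries held 8.68 to 8.84 FPKM of Cycs and the FIR libraries 2.94 to 3.37. The MC libraries held 5.57 to 8.42 and the MIR libraries 2.60 to 4.19, so that neither pair overlapped (the plot of ratios). At E11.5 the same ratio was 16.5 to 17.4 in the irradiated and 21.6 to 29.9 in the untreated libraries. The transcript of the scaffold therefore stood closer to that of its trigger in FIR and MIR than in FC and MC. The ratio of Apaf1 to Casp9, its partner in the apoptosome, was 3.65 to 7.03 in FIR, 2.27 to 2.81 in FC, 3.69 to 4.69 in MIR and 1.84 to 2.08 in MC.

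**Figure D2:**
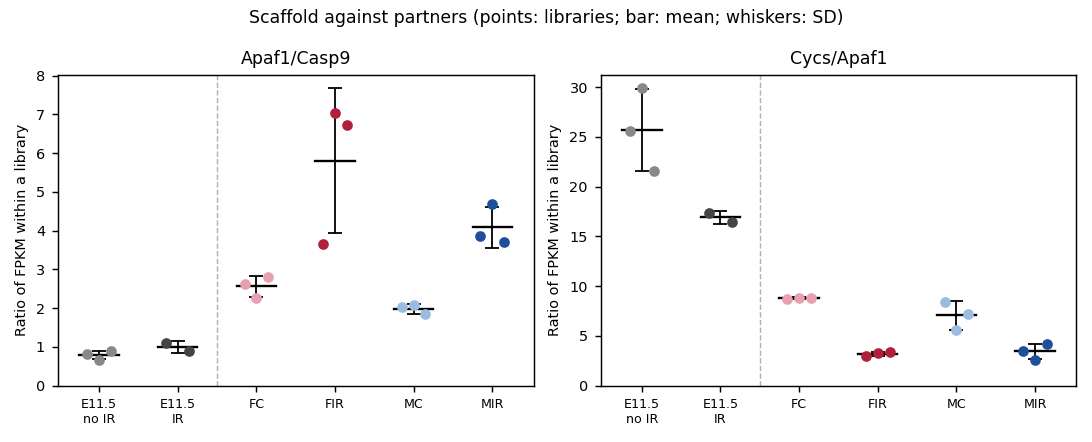
Ratio of the FPKM of Apaf1 to Casp9 (left) and of Cycs to Apaf1 (right) within each library (points), with group mean (bar) and SD (whiskers). The dashed line separates the E11.5 and E13.5 tables. The mean ratio of Apaf1 to Casp9 was 5.80 in FIR against 2.56 in FC and 4.08 in MIR against 1.99 in MC.

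Casp9, the initiator that the apoptosome activates, showed no called difference in either radiation comparison. It was at 5.23, 3.32 and 3.32 FPKM in FIR and at 3.82, 4.18 and 3.42 FPKM in FC. Replicate 1 was above all FC libraries and the other FIR libraries were below them. The log2 difference was 0.03 (95% confidence interval -0.30 to 0.36), and its sign turned without FIR replicate 1 (-0.15), without FC replicate 3 (-0.03), with library weights (-0.16) and with both other scalings. In males it was at 6.65, 6.09 and 6.47 FPKM in MIR and at 5.27, 5.88 and 5.86 FPKM in MC. All MIR libraries lay above all MC libraries, but the log2 difference of 0.15 (SE 0.152, adjusted p = 0.408 by limma) did not pass and turned to -0.19 with quantile normalization and -0.01 with median scaling. FIR replicate 1, the highest of its group for Casp9, was also the highest for supporting cell markers, whose part in the result was not tested.

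Casp2, the initiator of the platform that holds Pidd1 and Cradd, was lower in irradiated females. It was at 16.9, 17.8 and 19.2 FPKM in FIR and at 25.1, 22.6 and 22.8 FPKM in FC. The highest FIR library was below the lowest FC library, and the fall was -0.37 on the log2 scale (SE 0.0924, adjusted p = 0.00681 by limma), with a mean 0.764 times that of FC. In males it was at 21.9, 21.4 and 22.1 FPKM in MIR and at 23.5, 25.6 and 21.9 FPKM in MC. These overlapped slightly, and the log2 difference was -0.11 (SE 0.0924, adjusted p = 0.310 by limma), which reached -0.27 and passed with median scaling (adjusted p = 0.0389 by limma). The female and male differences were -0.26 apart (95% confidence interval -0.54 to 0.03), so a difference between the sexes was not shown. Casp2 was lowest of the FIR libraries in replicate 1 and lowest of the MIR libraries in replicate 2. Supporting cell markers were highest in the former (179.7 FPKM) and lowest in the latter (82.4 FPKM) of their groups. Without FIR replicate 1 and MIR replicates 1 and 3 the female Casp2 difference was -0.33 (n = 2 in FIR). The part of supporting cell RNA in the Casp2 differences was not tested.

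Casp6, an executioner known for cleaving lamin A, was higher in both radiation comparisons. It was at 75.4, 46.8 and 45.1 FPKM in FIR and at 27.1, 28.0 and 25.3 FPKM in FC. All FIR libraries lay above all FC libraries, with a log2 rise of 0.99 (SE 0.232, adjusted p = 0.00481 by limma). It was at 38.0, 20.5 and 40.8 FPKM in MIR and at 12.8, 12.6 and 12.02 FPKM in MC. The groups did not overlap, and the log2 difference was 1.28 (SE 0.232, adjusted p = 0.00059 by limma). The female and male differences were -0.29 apart (95% confidence interval -1.002 to 0.42).

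The highest FIR library and the lowest MIR library were the same for Casp6 and for the supporting cell markers. The others were not in the same order (the plot of Apaf1, Casp6 and Casp9 against these markers). FIR replicate 1 was highest in both, with 75.4 FPKM of Casp6 and 179.7 FPKM of summed markers, and MIR replicate 2 was lowest of its group in both, with 20.5 and 82.4 FPKM. The other FIR libraries, replicates 2 and 3, held 46.8 and 45.1 FPKM of Casp6 with 77.7 and 83.5 FPKM of markers, and MIR replicates 1 and 3 held 38.0 and 40.8 with 245.2 and 198.9. Pregranulosa markers summed to 344.3, 142.0 and 130.3 FPKM in FIR replicates 1, 2 and 3, which is the order of Casp6. Sertoli markers summed to 4181, 1228 and 3803 FPKM in MIR replicates 1, 2 and 3, which is not. Without FIR replicate 1 and MIR replicates 1 and 3 the female Casp6 difference was 0.76 (n = 2 in FIR). The male value was then 0.68, from 1 MIR library, the lowest in Casp6, and carries no test. The part of supporting cell RNA in the Casp6 differences was not tested.

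**Figure D3:**
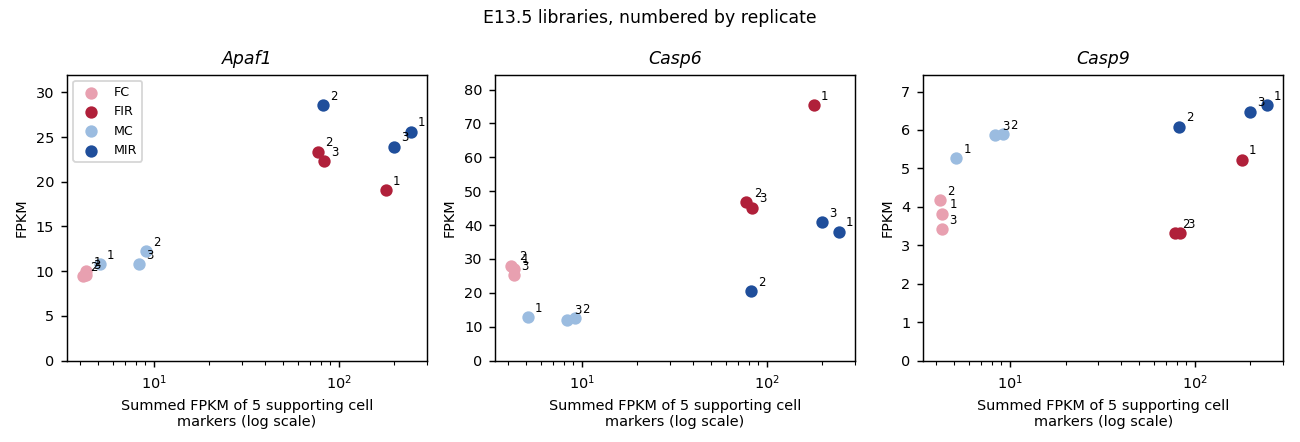
FPKM of Apaf1, Casp6 and Casp9 (vertical axes) against the summed FPKM of 5 supporting cell markers (horizontal axes, log scale) in the 12 E13.5 libraries, numbered by replicate. Casp6 was highest in FIR replicate 1, and Apaf1 was highest in MIR replicate 2, which held the fewest supporting cell markers of its group (82.4 FPKM).

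Of the proteins released beside cytochrome c, Aifm1 was lower in both radiation comparisons and Diablo passed the test in neither. Aifm1 was at 70.8, 102.5 and 110.5 FPKM in FIR and at 132.9, 135.2 and 130.1 FPKM in FC. No FIR library reached an FC library, and the fall was -0.51 on the log2 scale (SE 0.134, adjusted p = 0.00898 by limma). FIR replicate 1 was the lowest and held the most supporting cell markers of its group. Without it and MIR replicates 1 and 3 the difference was -0.32 (n = 2 in FIR). In MIR, Aifm1 was lowest in replicate 2, which held the fewest of these markers. The part of supporting cell RNA in the Aifm1 differences was not tested. In males Aifm1 was at 67.9, 64.7 and 75.1 FPKM in MIR and at 89.3, 89.4 and 89.9 FPKM in MC. The groups did not overlap and differed by -0.37 (SE 0.134, adjusted p = 0.0311 by limma). That call was lost without MIR replicate 1 or 2 or any single MC library (adjusted p = 0.0657 to 0.0742 by limma) and with quantile normalization (-0.14, adjusted p = 0.294 by limma).

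Diablo was at 49.5, 56.8 and 61.6 FPKM in FIR and at 64.1, 65.8 and 67.5 FPKM in FC. All FIR libraries were below all FC libraries, but the log2 difference of -0.23 (SE 0.0901, adjusted p = 0.0502 by limma) narrowly missed the threshold. It passed without FIR replicate 3 (-0.31, adjusted p = 0.0225 by limma), without MIR replicate 2 (adjusted p = 0.0417 by limma), with median scaling (adjusted p = 0.0473 by limma), with library weights (adjusted p = 0.00292 by limma) and with no filter (adjusted p = 0.0449 by limma). In males Diablo was at 44.9, 46.8 and 46.9 FPKM in MIR and at 56.5, 51.2 and 50.4 FPKM in MC. These did not overlap either, and the log2 difference was -0.18 (adjusted p = 0.0947 by limma), which became 0.0074 with quantile normalization and passed without FIR replicate 1 (adjusted p = 0.0469 by limma) and with median scaling (-0.35, adjusted p = 0.0206 by limma). Diablo and Aifm1 shared the same order of group means, FC, FIR, MC and MIR, in which FIR and MC overlapped. Diablo was lowest in replicate 1 of both FIR and MIR, which held the most supporting cell markers of their groups. The part of supporting cell RNA in the Diablo differences was not tested.

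Counted together, 2 of the 7 genes rose (Apaf1 and Casp6) and 2 fell (Casp2 and Aifm1) in FIR against FC, while 21.8% of the 12852 genes tested were called higher and 22.9% lower. In MIR against MC, 2 were higher (Apaf1 and Casp6) and 1 was lower (Aifm1), with 28.7% of genes called higher and 31% lower. The male split of calls over all genes, 3690 higher and 3989 lower, became 2869 and 4575 with quantile normalization and 3076 and 5143 with median scaling, which moved the median of all genes by -0.12 and -0.16. These shares are near those of all genes, so the counts say nothing particular to the 7 members. The medians of the 7 log2 differences were -0.23 in females and 0.15 in males, against -0.03 and -0.04 over all genes. No member was called for a difference between the female and male changes, with 1 member at an unadjusted p under 0.05 (Cycs), 2.81% of genes called higher and 4.96% lower, and 3041 genes at an unadjusted p under 0.05. If the male sets are taken by their titles instead, the sex difference turns to 2.21 for Apaf1 and 2.28 for Casp6, and 5 members are called.

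**Figure D4:**
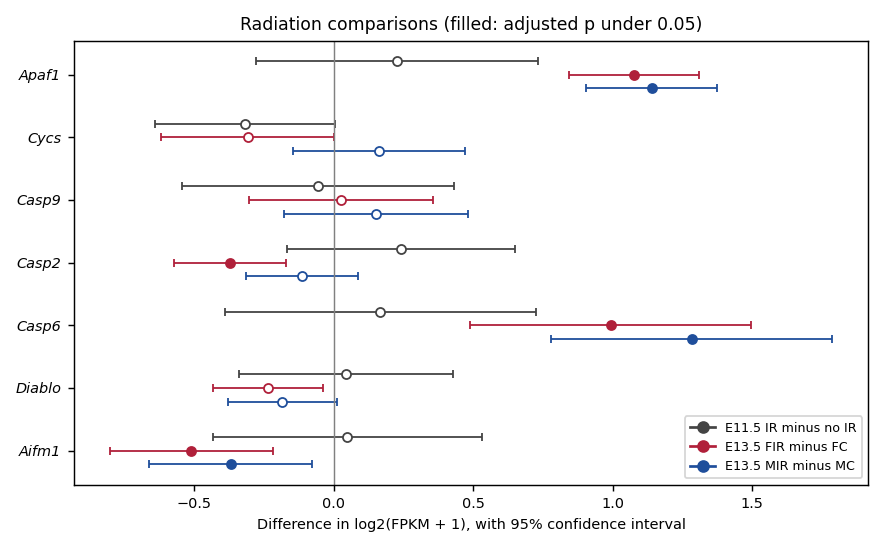
Difference in log2(FPKM + 1) of each of the 7 genes with its 95% confidence interval for E11.5 IR minus untreated, FIR minus FC and MIR minus MC. Filled points have an adjusted p under 0.05 and open points do not. Apaf1 and Casp6 lie near or above 1 in both E13.5 comparisons, and Casp9 lies near 0 in all 3.

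The untreated libraries by code, FC and MC, differed between the sexes for 4 members, with 16.1% of genes called higher and 18.8% lower in FC. These libraries are also the reference of the radiation comparisons, so the values are not independent of them, and by the titles MC would be irradiated. Casp6 was higher in FC by 1.04 on the log2 scale (SE 0.232, adjusted p = 0.00431 by limma), from 26.8 ± 1.38 and 12.5 ± 0.404 FPKM (SD, n = 3 each), and 96.2% of genes tested had a lower value. Aifm1 was higher in FC by 0.56 (adjusted p = 0.00641 by limma), from 132.7 ± 2.56 and 89.5 ± 0.294 FPKM. Aifm1 is X-linked, and the 481 X-linked genes tested had a median difference of 0.45, with 45.7% called higher in FC. The 11570 autosomal genes had a median of -0.03, with 15% called higher. The part of X linkage in the Aifm1 difference was not tested. Diablo was higher in FC by 0.32 (adjusted p = 0.0168 by limma), and Casp9 was lower, by -0.48 (adjusted p = 0.0285 by limma), at 3.80 ± 0.382 against 5.67 ± 0.346 FPKM. The Diablo call was lost without MC replicate 2 or 3 or FC replicate 2 or 3, and the Casp9 call without MC replicate 2 or 3 or FC replicate 1 or 3 (adjusted p = 0.0527 to 0.107 by limma). Apaf1, at -0.20, Cycs, at 0.12, and Casp2, at -0.01, did not pass, and the sign of Casp2 turned with quantile normalization (0.05). The median of the 7 differences was 0.12, against -0.02 over all genes.

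Other genes of the pathway were read from lists chosen with earlier results of these data known. The part of supporting cell RNA in their differences, here and in the lists that follow, was not tested. Among caspases, adaptors and caspase inhibitors, 14 of 18 in the E13.5 table could be tested, and 8 were higher and 2 lower in each radiation comparison, with medians of 0.46 (FIR minus FC) and 0.52 (MIR minus MC). Over all genes, 21.8% were called higher and 22.9% lower in FIR, and 28.7% and 31% in MIR. Casp8, the initiator of the death receptor route, was at 5.03 ± 2.28 FPKM in FIR and 0.543 ± 0.0468 in FC (SD, n = 3 each), and rose by 1.90 (adjusted p = 0.000802 by limma). In MIR it was at 10.5 ± 5.004 and in MC at 0.548 ± 0.161 FPKM, a difference of 2.79 (adjusted p = 3.56e-05 by limma). Cflar, which restrains caspase-8, was higher by 1.44 and 1.66. Htra2, a mitochondrial protease released with Diablo, was higher by 1.22 and 0.68. Casp14, a caspase of cornifying skin, was called higher by 0.71 and 1.06 at means of 0.701 and 1.16 FPKM.

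Of the Casp2 platform, Lrdd, the symbol that the tables use for Pidd1, rose from 3.71 ± 0.464 FPKM in FC to 8.31 ± 0.339 in FIR, by 0.99 on the log2 scale (adjusted p = 0.000221 by limma), and was higher in MIR than in MC by 1.15. The adaptor Cradd was higher by 0.39 and 0.61. Casp2 itself thus moved opposite to both in females. Cradd and Xiap are named here after their values were seen. Xiap, the inhibitor that Diablo counters, was lower in FIR by -0.29 and higher in MIR by 0.28, with adjusted p of 0.0484 and 0.0405 by limma. Without FIR replicate 1 and MIR replicates 1 and 3, 7 genes of this list were higher and 2 lower in females. For males that set leaves 1 MIR library, so no male count is given for it here or for the lists that follow.

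Of 10 genes that tune apoptosome assembly, 0 were higher and 7 lower in each comparison, against 22.9% and 31% of all genes called lower, with medians of -0.41 in females and -0.56 in males (the plot of female against male differences). The others, Anp32a, Apip and Ptma, named after their values were seen, did not pass, and Anp32a was at 0.13 and 0.02. Hspa4 and Hspa8, heat shock proteins of the family known to interfere with apoptosome formation, were lower by -0.61 and -0.64 in FIR and by -0.76 and -0.70 in MIR. Cse1l, a nuclear export factor reported to promote apoptosome assembly, was lower by -0.56 and -0.59, Aven, which binds Apaf1 and limits its self-association, by -0.41 and -0.65, and Ywhae, a 14-3-3 protein, by -0.30 and -0.45. The list therefore holds falling members that are known to promote and to restrain assembly. The female count was 4 without FIR replicate 1 or FC replicate 2 and 7 without the 3 libraries richest in supporting cell RNA.

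**Figure D5:**
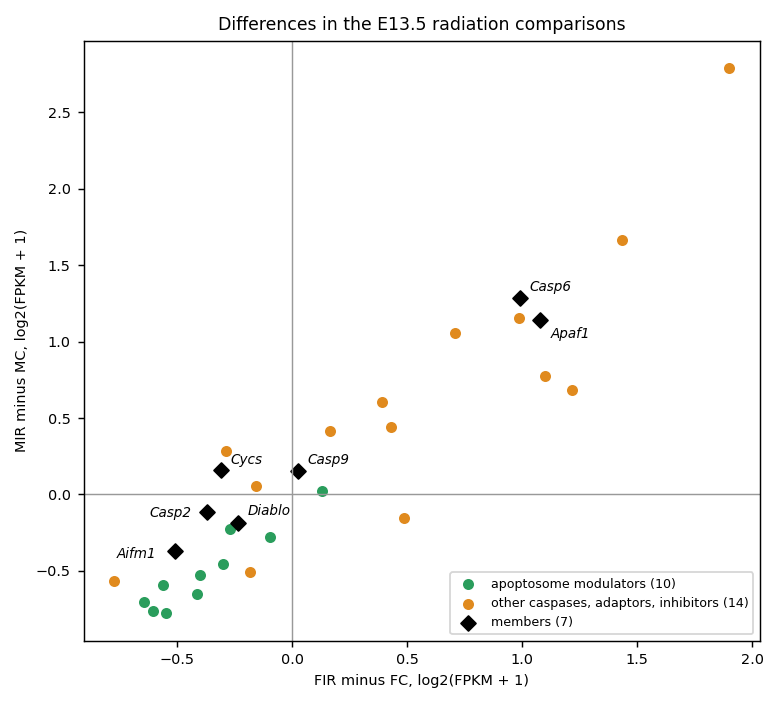
Difference in log2(FPKM + 1) in females (FIR minus FC, horizontal) against males (MIR minus MC, vertical) for the 7 members (diamonds), 10 apoptosome modulators and 14 other caspases, adaptors and inhibitors, with 1 point per gene. Of the modulators, 0 passed as higher and 7 as lower in each comparison, and the point at the upper right is Casp8 (1.90 and 2.79).

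Upstream, 15 genes of the Bcl-2 family could be tested, and 8 were higher and 2 lower in each comparison, with medians of 0.58 and 0.46. The shares of all genes were 21.8% higher and 22.9% lower in females, and 28.7% and 31% in males. Bak1, which forms pores in the outer mitochondrial membrane, was at 6.08 ± 2.89 FPKM in FIR and 0.830 ± 0.0643 in FC and rose by 1.88. It was higher in MIR by 1.68. The part of supporting cell RNA in the Bak1 differences was not tested. Bcl2a1b and Bcl2, both known as survival proteins, rose by 1.48 and 1.20 in females and were higher in MIR by 0.63 and 0.84. Bok, a pore-forming relative of Bak1, was higher by 1.32 and 2.27, and Bbc3, a trigger protein of the family, by 1.22 in each. Pmaip1, another trigger protein, rose by 1.44 in females and was lower in MIR by -0.78. Bcl2l2, a survival protein, was at 0.52 in females, which did not pass, and was higher in MIR by 1.31. Without the 3 libraries richest in supporting cell RNA, 6 were higher and 1 lower in females.

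Downstream, of 15 genes for caspase substrates and DNA fragmentation, 3 were higher and 5 lower in females and 6 and 6 in males, with medians of -0.06 and -0.23. Of all genes, 21.8% were called higher and 22.9% lower in females, and 28.7% and 31% in males. Dffb, the nuclease freed when caspases cut its inhibitor, rose by 1.26 in FIR, from 2.46 ± 0.361 to 7.31 ± 1.24 FPKM, and was higher in MIR by 0.72. Lmna, which encodes lamin A, was higher by 1.24 and 2.32, and Lmnb1, another lamin gene, was lower by -0.34 and -0.61. Parp1, a DNA break sensor that caspases cleave, was lower by -0.57 and -0.76, and Acin1, a chromatin condensation factor, by -0.30 and -0.70. Without the 3 libraries richest in supporting cell RNA, 3 were higher and 5 lower in females.

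Of 21 genes for other proteins of the intermembrane space and inner membrane, 4 were higher and 3 lower in females and 3 higher and 11 lower in males, with medians of -0.14 and -0.22. Among all genes, 21.8% were called higher and 22.9% lower in females, and 28.7% and 31% in males. Immt, a scaffold of the cristae, was lower by -0.44 and -0.38, and Parl, a protease that processes Diablo, by -0.36 and -0.46. Suox, a sulfite oxidase, was higher by 0.87 and 0.37. Chchd4, which imports proteins together with Aifm1, and Cyct, the testis form of cytochrome c, were at -0.24 and -0.27 in females, which did not pass, and were lower in MIR by -0.66 and -0.86. Aifm2, an Aifm1 relative, was at 0.20 in females, which did not pass, and was higher in MIR by 0.96. The female count was 3 higher and 1 lower without FC replicate 2 or 3, and the male count was 1 higher and 7 lower without MIR replicate 3 or MC replicate 3. Without the 3 libraries richest in supporting cell RNA, 4 were higher and 5 lower in females.

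Also read were 22 p53 target genes that are no members. They were listed with earlier results of these data known, so they are no independent check on the response. In females 20 were higher and 0 lower, against 21.8% and 22.9% of all genes, with a median of 1.26. In males 19 were higher and 1 lower, against 28.7% and 31%, with a median of 1.39. Without the 3 libraries richest in supporting cell RNA 20 were higher and 0 lower in females. FIR replicates 2 and 3, which were kept, still held 77.7 and 83.5 FPKM of supporting cell markers, against 4.17 to 4.31 in FC. Ccng1, Dcxr, Ephx1 and Eda2r had the smallest p-values in both comparisons, and Ccng1 was at 217.7 ± 20.96 FPKM in FIR, 48.0 ± 2.50 in FC, 250.1 ± 33.2 in MIR and 37.5 ± 2.88 in MC. At E11.5 none of the genes in these 6 lists passed the test.

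The genes whose log2 levels over the 12 E13.5 libraries were most like each member were found among 11945 genes, as a description over libraries that fall into 4 groups. Apaf1 was most like Rtkn (Pearson r = 0.99), Aox4 and Ephx1, the last of them one of the p53 targets above. Casp6 was most like Stom (r = 0.99), Six5 and Ttyh2, and Casp9 most like Rab7 (r = 0.97), Alkbh1 and Ddx17. Casp2 was most like Glcci1 (r = 0.95), Tmem123 and Atxn2l. Diablo was most like Fkbp2 (r = 0.97), Fh1 and Bcap31, and Aifm1 most like Rbbp7 (r = 0.97), Madd and Dscc1. Cycs had the loosest match, with H2afz (r = 0.88), Bex4 and Pdia4.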

How the data were processed

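RNA was depleted of ribosomal RNA and sequenced, per the labels' protocols. The authors deposited FPKM values per gene in 1 table per embryonic day; per the submitters' processing notes the build was mm10 and DESeq2 was among the tools. The aligner, annotation and counting method were not given in the sources used here. Every column was matched to a sample, and no libraries were identical.

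Values were transformed to log2(FPKM + 1). Genes reaching 1 FPKM in 2 libraries (E11.5) or 3 (E13.5) were fitted with limma 3.58.1 (trend and empirical Bayes, R 4.3.3), which suits FPKM where count tests do not. The 4 E13.5 groups shared 1 fit with 8 residual degrees of freedom. P-values are two-sided and adjusted by Benjamini-Hochberg over all genes tested, with a threshold of 0.05. "Higher", "lower", "rose" and "fell" of tests mean past it, and log2 differences understate changes of low genes. Depth was estimated from single-transcript genes of at least 1500 bases, where 51.0% to 67.0% of low values were whole multiples of 1 fragment within 0.1 fragments (20% by chance), too few to recover counts.

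Members and lists were chosen with earlier results of these data known. List genes were named by the 4 smallest adjusted p per comparison, and some list genes are not reported here. Likeness was Pearson r over the E13.5 libraries. Replicate numbers were not used to pair the samples in the main fit, and whether they mark pairs is not known. Alternatives were pseudocounts 0.5 and 0.1, a filter at 5 FPKM or none, library weights, robust moderation, scaling by quantiles or by medians, a replicate block, only the groups compared, male groups by titles and each library left out; leaving out FIR 1, MIR 1 and MIR 3 was added after seeing the data. The FIR libraries kept in that set still held more supporting cell RNA than FC. That choice and the 1 MIR library left affect the spread that the groups share in the fit. Calls from that set are therefore not comparable with those of the main fit. The fit was tested on simulated data. Figures used Python 3.11.15 and matplotlib 3.10.9.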

Additional observations from a re-analysis of the deposited data

Results flagged for a closer look

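For 7 of 93 pathway genes tested (7.53%), none of them a member, the female change (FIR minus FC) and the male change (MIR minus MC) differed past the threshold by limma's interaction term, and by the titles of the male sets the male signs would turn. Over all 12852 genes the share was 7.77%, so 7 genes is near the background, and that total of 998 genes ran from 463 to 2490 with 1 library left out. Panx1, a channel that caspases open, was at 0.08 in females and 1.46 in males, a difference of -1.37 on the log2 scale (adjusted p = 0.00527). Perp, a p53 target at cell junctions, was at 1.06 and 2.42, a difference of -1.36 (adjusted p = 0.0174). Pmaip1, a trigger protein of the Bcl-2 family, was at 1.44 and -0.78, a difference of 2.21 (adjusted p = 0.00940). Sesn2, a stress-induced p53 target, was at 1.39 and 0.66, a difference of 0.73 (adjusted p = 0.0123). Of the mitochondrial genes, Prelid1, a lipid carrier, was at 0.34 and -0.22, a difference of 0.56 (adjusted p = 0.0203), and Timm8a1, an import chaperone, was at 0.62 and -0.18, a difference of 0.80 (adjusted p = 0.0210). Xiap, the caspase inhibitor, was at -0.29 and 0.28, a difference of -0.57 (adjusted p = 0.0433).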

How the results depend on the processing

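Over 742 alternative values for single members, 676 kept their direction and side of the threshold, 16 newly passed, 14 no longer passed and 36 changed sign. These include the values of the set that leaves 1 MIR library. In the 23 alternatives of each E13.5 comparison, the calls of Apaf1, Casp6, Casp2 and Aifm1 in FIR minus FC and of Apaf1 and Casp6 in MIR minus MC held, although the alternative that leaves 1 MIR library says nothing about the male calls. The replicate block changed no count of members called (4 in FIR minus FC and 3 in MIR minus MC). After group means were subtracted for each gene, same-numbered libraries correlated at -0.17 to 0.45 at E13.5 and at 0.14 and 0.21 at E11.5. The highest values were 0.45 between MIR and FIR replicate 1 and 0.37 between MIR and FIR replicate 2.

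The count of members called in MIR minus MC was 5 with median scaling. In FC minus MC it was 2 to 4 with each library left out, with 2 without MC replicate 2 or 3 or FC replicate 3. For the sex difference it was 1 with library weights, 5 with male groups by titles and 0 to 1 with each library left out, the 1 without MIR replicate 2. Over all genes, the sex difference called 998 genes, but 557 with the filter at 5 FPKM, 3763 with library weights and 8702 by titles. With each library left out it called 463 (without MIR 3) to 2490 (without MIR 2). FC minus MC called 8835 genes with library weights, and E11.5 up to 17 without IR 2. Counts over all genes without FIR 1, MIR 1 and MIR 3 are not given, as that set leaves 1 MIR library. Of the lists, caspases and adaptors gave 5 higher and 1 lower in females with quantile normalization, and the Bcl-2 family 5 and 1 in females and 4 and 2 in males with the filter at 5 FPKM, which tests fewer genes.

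With each library left out in turn, log2 differences that changed sign ranged as follows. At E11.5, Casp9 -0.28 to 0.17, Casp6 -0.076 to 0.41, Diablo -0.071 to 0.16 and Aifm1 -0.14 to 0.24. In FIR minus FC, Casp9 -0.15 to 0.11. In FC minus MC, Casp2 -0.061 to 0.049. For the sex difference, Apaf1 -0.12 to 0.020, Diablo -0.12 to 0.034 and Aifm1 -0.26 to 0.053. With quantile normalization, Casp9 was -0.33 (FIR minus FC) and -0.19 (MIR minus MC), Diablo 0.0074 (MIR minus MC), Casp2 0.047 (FC minus MC) and Apaf1 0.014 (sex difference). With median scaling, Casp9 was -0.046 and -0.010, Casp2 0.0074 (FC minus MC), and for the sex difference Apaf1 0.026 and Diablo 0.039. With library weights, whose estimation at E13.5 stopped before its convergence tolerance was reached, Casp9 was -0.16 (FIR minus FC), Casp2 0.065 (FC minus MC) and Aifm1 0.037 (sex difference). By titles, the sex difference was 2.21 for Apaf1, 0.18 for Casp9 and 2.28 for Casp6. Without FIR 1, MIR 1 and MIR 3, which leaves 1 MIR library that is assumed to vary like the other groups, Casp9 was -0.15 (FIR minus FC), Cycs -0.071 (MIR minus MC), and for the sex difference Casp6 0.081, Diablo 0.014 and Aifm1 0.15. The cause of these changes was not tested. Depth limits Casp9, the member with the fewest fragments, most.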
